A study of Mus musculus with 12 samples.

Results

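Genes that T cells and natural killer T (NKT) cells switch on when they are activated were followed in mouse liver over the first 6 h after an injection of concanavalin A (ConA). The 10 genes were Cd69, Il2, Il2ra, Il4, Il10, Il13, Il21, Tnfrsf4, Tnfrsf9 and Ctla4. All probe sets whose platform symbol was 1 of these genes were taken, which gave 14 of 45037 probe sets and 10 of 18193 genes. Il2ra and Il21 had 2 probe sets each, Tnfrsf9 had 3 and the other genes had 1. The livers came from male Balb/c mice aged 8 to 10 weeks, and ConA was given into the tail vein at 20 mg/kg. Each of 4 groups had 3 arrays: controls (0 h) and mice 1 h, 3 h or 6 h past the injection. The labels call the 0 h mice untreated, whereas the study's methods name an injection of PBS for the controls. No control was taken at 1 h, 3 h or 6 h, so that ConA and time of day cannot be told apart. The sources do not say whether each array held the RNA of 1 mouse, and p-values measure the spread between these arrays.

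ConA is a plant lectin that binds sugar chains on the T cell surface and activates T cells through the T cell receptor. Receptor engagement raises calcium, calcineurin then moves NFAT proteins into the nucleus, and NFAT, AP-1 and NF-kB together switch on cytokine and surface receptor genes. In mouse liver NKT cells are abundant and carry ready-made cytokine transcripts, and ConA hepatitis depends on T and NKT cells. CD69 is an early activation antigen, IL-2 is the growth factor of T cells and IL-2 receptor alpha (Il2ra) makes its receptor high-affinity. IL-4 and IL-13 are type 2 cytokines, IL-10 is an anti-inflammatory cytokine and IL-21 is made by activated CD4 T cells and NKT cells. OX40 (Tnfrsf4) and 4-1BB (Tnfrsf9) are costimulatory receptors of the TNF receptor family, and CTLA-4 is an inhibitory receptor that competes with CD28 for CD80 and CD86.

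The deposited values were linear signal intensities, with a median per array between 13.6 and 20.4. Before log2 was taken, every lower signal was raised to 3.04, called the floor, which is the 20th percentile of all values. Between 17.5% and 23.2% of the probe sets of an array were at the floor. The floor is a fixed signal and not a detection call, and values at or under it have no order. A group with all 3 arrays at the floor adds no spread, which lowers the SE and p of that probe set. Log2 values of any 2 arrays correlated at 0.92 to 0.96 over all probe sets. None of the 4 measured hepatocyte markers passed the test at any time, and their summed signal was 36840 to 39283 at 3 h, against 38512 to 41977 in controls. The whole liver was measured, so that fewer cells of a type and less RNA per cell cannot be told apart.

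Cytokine genes of the group lie as 2 neighbouring pairs in the genome, and the stretches upstream of these 4 are shown because NFAT is known to act on cytokine promoters. Il4 and Il13 are 12657 bases apart on chromosome 11, and Il2 and Il21 are 96804 bases apart on chromosome 3. The 250 bases upstream of their annotated start sites are shown from RefSeq (mouse build GRCm38.p6, the reference strain and not Balb/c), all on the minus strand, at chr11:53618666-53618915 for Il4, chr11:53634703-53634952 for Il13, chr3:37125955-37126204 for Il2 and chr3:37232637-37232886 for Il21. Capitals mark the NFAT core GGAAA and its reverse complement TTTCC, and the TATA box TATAAA on either strand.
Il4: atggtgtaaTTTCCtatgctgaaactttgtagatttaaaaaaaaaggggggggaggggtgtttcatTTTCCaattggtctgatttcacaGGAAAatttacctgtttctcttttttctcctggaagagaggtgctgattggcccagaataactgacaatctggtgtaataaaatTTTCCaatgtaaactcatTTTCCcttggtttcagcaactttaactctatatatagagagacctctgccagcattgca
Il13: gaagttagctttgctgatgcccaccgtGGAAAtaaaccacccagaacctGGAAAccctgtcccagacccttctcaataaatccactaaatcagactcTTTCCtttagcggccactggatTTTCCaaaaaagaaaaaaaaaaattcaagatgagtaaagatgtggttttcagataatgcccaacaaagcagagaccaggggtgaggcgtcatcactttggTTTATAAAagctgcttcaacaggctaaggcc
Il2: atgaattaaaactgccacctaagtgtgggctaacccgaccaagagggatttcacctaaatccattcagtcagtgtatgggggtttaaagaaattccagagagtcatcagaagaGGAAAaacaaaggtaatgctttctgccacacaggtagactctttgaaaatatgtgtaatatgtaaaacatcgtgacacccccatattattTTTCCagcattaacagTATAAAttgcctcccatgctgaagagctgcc
Il21: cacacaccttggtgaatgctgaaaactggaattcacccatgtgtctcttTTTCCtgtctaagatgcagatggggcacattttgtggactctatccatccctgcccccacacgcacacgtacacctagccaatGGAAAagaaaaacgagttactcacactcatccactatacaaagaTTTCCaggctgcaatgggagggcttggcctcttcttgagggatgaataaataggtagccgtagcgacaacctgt
The NFAT core was found 5 times upstream of Il4, 4 times upstream of Il13, 3 times upstream of Il21 and 2 times upstream of Il2. Of 32851 mouse promoter windows of the same length, 55.6% held it at least once and 1.59% held it 4 times or more. The TATA box was found upstream of Il2 and Il13, against 12.4% of all windows. Of the 10 genes, 8 had a window, and all 8 held the NFAT core in at least 1 of their windows, in 9 of 10 windows in all. The AP-1 motif (TGACTCA or TGAGTCA) was found in 1 window, that of a second Tnfrsf9 start site, against 4.46% of all windows. The NF-kB consensus was found upstream of Il2ra and of the second Tnfrsf9 start site, against 3.9% of all windows, and both of its overlapping matches in the Tnfrsf9 window share bases with an NFAT core. Cd69 and Il10 had no window and were not searched. A match says only that these letters are present.

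More of the activation genes passed the test against control at each later time. At 1 h Cd69 and Il4 were higher, 2 of 14 probe sets, against 1.29% of all probe sets. At 3 h Il2 and 1 Tnfrsf9 probe set were higher as well, 4 of 14 probe sets, against 3.77%. At 6 h 8 of 14 probe sets and 7 of 10 genes were higher (Cd69, Il2, both Il2ra probe sets, Il4, 1 Il21 probe set, 1 Tnfrsf9 probe set and Ctla4), against 12% of all probe sets. None of the 14 was lower than control at any time in limma, nor at an unadjusted p under 0.05 (0 of 14 at each time). Over all probe sets 0.255% were lower at 1 h, 9.83% at 3 h and 8.37% at 6 h. Il2, Il13, Ctla4 and a further Tnfrsf9 probe set were at the floor on all control arrays and could not be lower. With 1 array left out the count of higher probe sets was 4 at 1 h without ConA 1 h replicate 1, and 5 at 6 h without control replicate 2, control replicate 3 or ConA 6 h replicate 2. Without ConA 6 h replicate 1 it was 6 at 6 h, as both Il2ra probe sets and Il4 lost their call and Tnfrsf4 gained one. The median log2 change of the 14 probe sets was 0.59 at 1 h (0.07 over all probe sets), 0.14 at 3 h (-0.18 over all) and 1.37 at 6 h (0.04 over all). All comparisons came from limma over the 12 arrays, with p adjusted by Benjamini-Hochberg over all probe sets. Since the median of all probe sets at 3 h lay below 0 and was brought to about 0 by quantile normalization, changes at 3 h are also given minus that median. Over the 4 time points 8 of 14 probe sets passed limma's F test, against 28.1% of all probe sets.

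**Figure D1:**
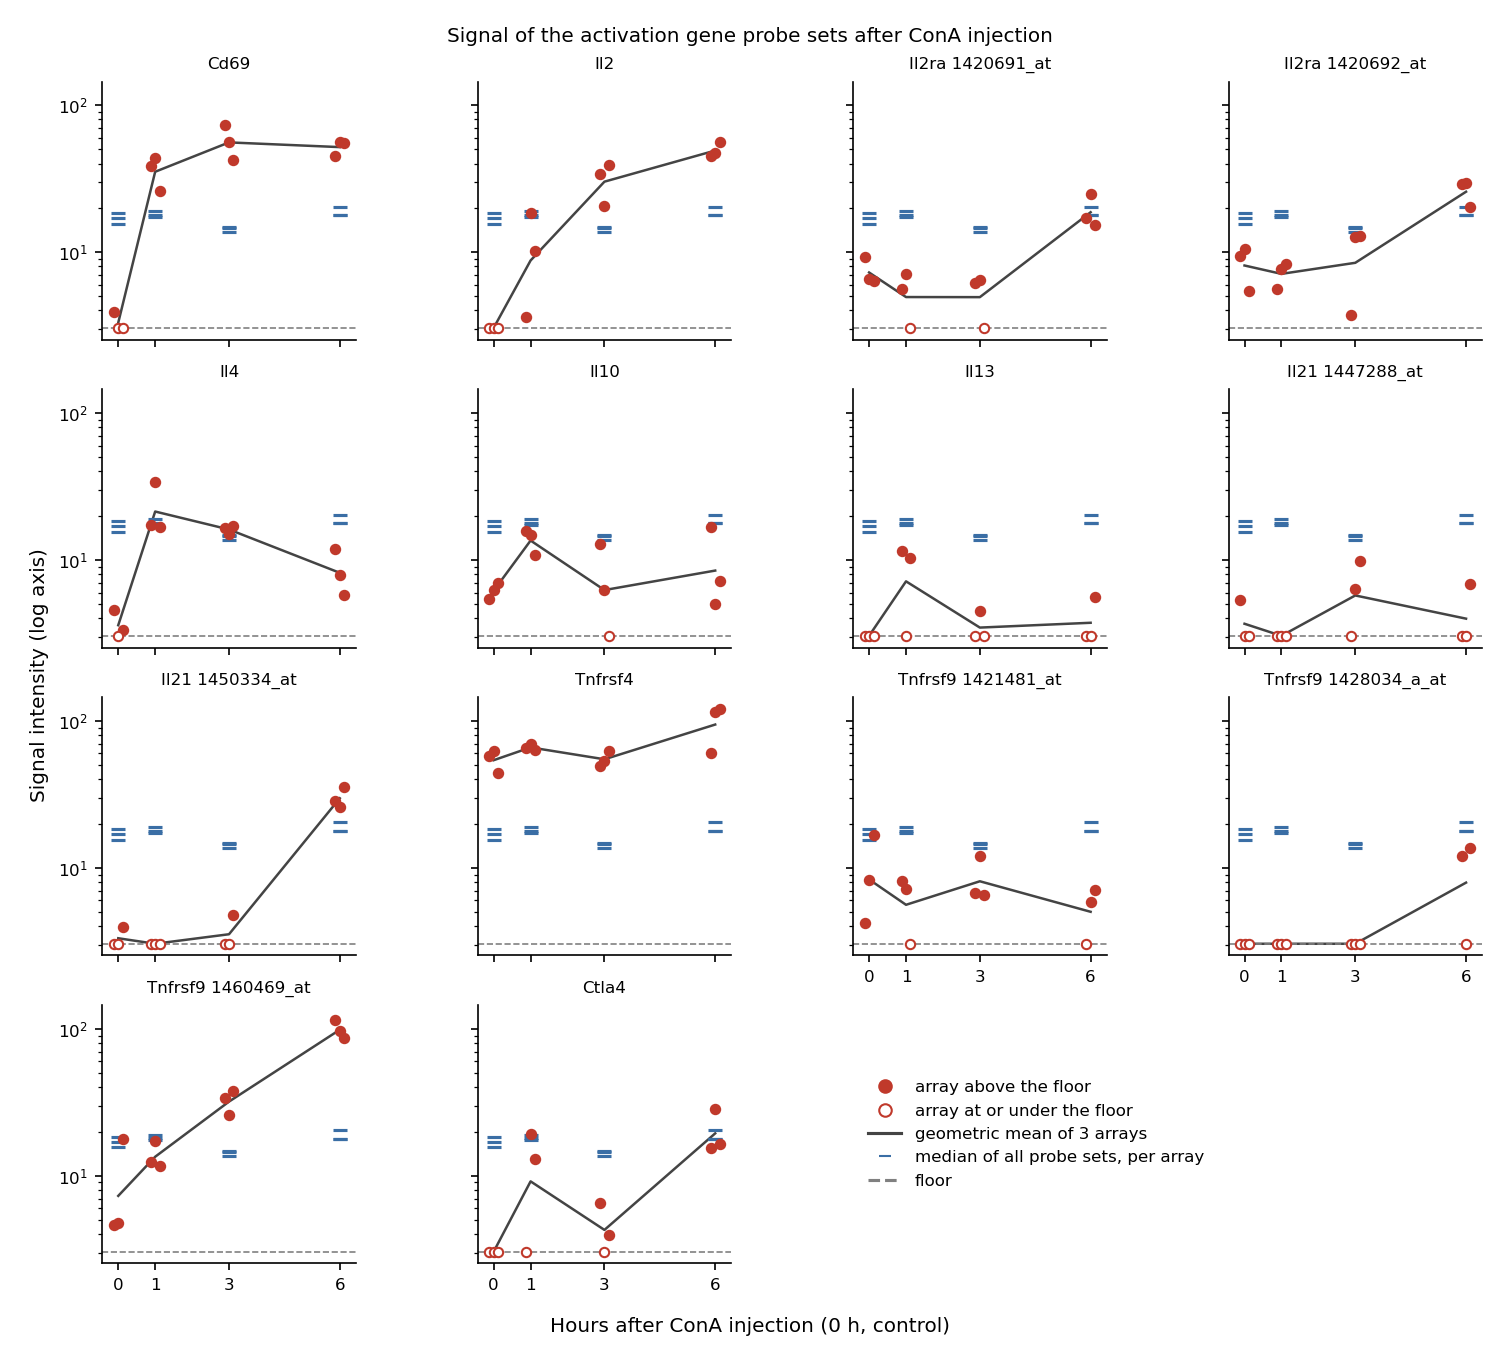
Signal of the 14 probe sets (log axis) against hours after ConA injection, 1 point per array, open where the array was at or under the floor of 3.04 (dashed line), with the geometric mean of the 3 arrays as a line and the median of all probe sets of each array as blue ticks. Cd69 had reached 25.9 to 43.5 by 1 h, whereas Il21 (1450334_at) lay at 25.9 to 35.4 at 6 h and at 4.76 or less before.

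Cd69 was higher than control at all 3 times. Its signal was 3.89, 2.98 and 1.24 in controls, 38.6, 43.5 and 25.9 at 1 h, 72.6, 56.2 and 42.3 at 3 h, then 44.8, 56.2 and 54.9 at 6 h. Every array after ConA lay above every control array, and 2 of the 3 control arrays were at the floor. The log2 change against control was 3.41 at 1 h (SE 0.24, adjusted p = 0.00017), 4.08 at 3 h (4.25 minus the median of all probe sets, SE 0.24, adjusted p = 1.7e-05) and 3.97 at 6 h (SE 0.24, adjusted p = 1.3e-05). No pair of time points after ConA passed the test, with a log2 difference of 0.66 for 3 h against 1 h (95% confidence interval 0.12 to 1.21, adjusted p = 0.10) and -0.11 for 6 h against 3 h (interval -0.65 to 0.44, adjusted p = 0.86). Leaving out any 1 array kept all 3 calls against control. With the floor raised to the median signal of the table, the call at 1 h was lost (log2 change 1.06, adjusted p = 0.084).

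Il2 was listed at or under the floor on all 3 control arrays and was higher at 3 h and 6 h. Its signal was 3.60, 18.3 and 10.2 at 1 h, 33.9, 20.5 and 39.3 at 3 h, then 44.7, 47.3 and 55.6 at 6 h, against at most 2.10 in controls. The arrays at 3 h and at 6 h all lay above the 1 h arrays, and the 6 h arrays all lay above the 3 h arrays. Il2 was at least 9.88-fold higher at 3 h than in control (log2 change 3.31, 3.48 minus the median of all probe sets, SE 0.50, adjusted p = 0.0029) and at least 16.1-fold higher at 6 h (log2 change 4.01, SE 0.50, adjusted p = 0.00055), both computed against the floor. At 1 h all 3 arrays lay above control but the log2 change of 1.52 did not pass the test (SE 0.50, adjusted p = 0.25). Without ConA 1 h replicate 1, the array at 3.60, it passed (log2 change 2.16, adjusted p = 0.019). Il2 was the only 1 of the 14 probe sets to pass the test at 3 h against 1 h (log2 difference 1.78, SE 0.50, adjusted p = 0.044), against 2.09% of all probe sets higher. That call was lost in 14 of 21 alternatives, 11 of them with 1 array left out (every array but ConA 1 h replicate 2), with an adjusted p between 0.053 and 0.18 in the 14. At 6 h against 1 h the log2 difference was 2.48 (SE 0.50, adjusted p = 0.0086).

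Il4 was higher than control at each time and lower at 6 h than at 1 h. Its signal was 4.57, 1.40 and 3.34 in controls, 17.3, 33.6 and 16.7 at 1 h, 16.5, 14.9 and 17.0 at 3 h, then 11.9, 7.95 and 5.76 at 6 h. Every array after ConA lay above every control array, and every 6 h array lay below every 1 h and 3 h array. The log2 change against control was 2.57 at 1 h (SE 0.33, adjusted p = 0.0050), 2.16 at 3 h (2.34 minus the median of all probe sets, SE 0.33, adjusted p = 0.0029) and 1.18 at 6 h (SE 0.33, adjusted p = 0.031). Il4 fell by 1.39 on the log2 scale at 6 h against 1 h (SE 0.33, adjusted p = 0.018), the only 1 of the 14 probe sets lower in any comparison of time points, against 9.08% of all probe sets lower at 6 h than 1 h. At 6 h against 3 h the log2 difference was -0.98 (95% confidence interval -1.72 to -0.24, adjusted p = 0.074). The call at 6 h against control was lost without control replicate 2 (adjusted p = 0.098), control replicate 3 (0.086), ConA 6 h replicate 1 (0.097) or ConA 6 h replicate 2 (0.074), and the fall at 6 h against 1 h without ConA 6 h replicate 2 (0.053) or replicate 3 (0.062). With the floor at the median signal, which lies above most of these values, no call for Il4 was made. With only the groups compared the calls against control at 1 h (adjusted p = 0.084) and 6 h (0.074) were lost. The fall at 6 h against 1 h was lost there too (0.11). Scaling to the 75th percentile also ended the call at 6 h against control (0.052).

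Il13, Il10 and 1 of the Il21 probe sets (1447288_at) did not pass the test in any comparison. Il13 was at or under the floor on the 3 control arrays, at 11.6, 1.46 and 10.4 at 1 h, at 3.01, 4.48 and 2.62 at 3 h and at 2.87, 2.41 and 5.62 at 6 h. It was thus above the floor on 2 of 3 arrays at 1 h and on 1 of 3 arrays at 3 h and at 6 h. The log2 change at 1 h was 1.23 (95% confidence interval 0.16 to 2.30, adjusted p = 0.34), and it passed the test without ConA 1 h replicate 2, the array at the floor (log2 change 1.85, adjusted p = 0.027). Il10 was at 5.41, 6.21 and 7.0 in controls, 15.7, 14.7 and 10.8 at 1 h, 12.8, 6.24 and 2.25 at 3 h, then 16.6, 5.03 and 7.24 at 6 h. All 3 arrays at 1 h lay above control while those at 3 h and 6 h overlapped it, and the log2 change at 1 h was 1.13 (95% confidence interval -0.09 to 2.35, adjusted p = 0.47).

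Il21 rose at 6 h with the other probe set (1450334_at). That probe set had signals of 0.244, 2.64 and 3.94 in controls, 1.42, 1.88 and 0.836 at 1 h, 1.37, 2.24 and 4.76 at 3 h, then 28.7, 25.9 and 35.4 at 6 h. Of the 9 arrays before 6 h, 7 were at or under the floor, and all 3 arrays at 6 h lay above all of them. The log2 change at 6 h was 3.16 against control (SE 0.19, adjusted p = 1.3e-05) and 3.07 against 3 h (SE 0.19, adjusted p = 0.00022), and at least 9.77-fold against 1 h, whose arrays were all at the floor. Leaving out any 1 array kept these calls, as did each other alternative that tested the probe set. Probe set 1447288_at of Il21 was at or under the floor on 8 of 12 arrays and never above 9.79, with a log2 change of 0.12 at 6 h (95% confidence interval -0.92 to 1.15, adjusted p = 0.94), so that the 2 probe sets of Il21 differ in what they show at 6 h.

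Il2ra was higher at 6 h with both probe sets. The first (1420691_at) had signals of 9.31, 6.50 and 6.30 in controls, 5.59, 7.07 and 2.92 at 1 h, 6.12, 6.43 and 2.04 at 3 h, then 17.1, 24.9 and 15.2 at 6 h. The second (1420692_at) had 9.36, 10.5 and 5.39 in controls, 5.61, 7.64 and 8.34 at 1 h, 3.70, 12.7 and 12.8 at 3 h, then 28.8, 29.3 and 20.1 at 6 h. For both, all 6 h arrays lay above all other arrays, and the arrays at 1 h and 3 h overlapped those of the controls. The log2 change at 6 h against control was 1.36 (SE 0.39, adjusted p = 0.034) and 1.67 (SE 0.47, adjusted p = 0.035), and at 6 h against 3 h 1.92 (SE 0.39, adjusted p = 0.010) and 1.61 (SE 0.47, adjusted p = 0.048). The call of the first against control was lost without control replicate 2 or 3 or any 1 of the 3 ConA 6 h arrays (adjusted p 0.053 to 0.12), and that of the second without any 1 of the control or ConA 6 h arrays or ConA 1 h replicate 2 (adjusted p 0.052 to 0.12). Scaling to the 75th percentile (adjusted p = 0.053), a pseudocount of 1 (0.053) or a floor at the median signal (0.46) also ended the call of the first against control. For the first probe set the calls at 6 h against 3 h and against 1 h (log2 difference 1.92, SE 0.39, adjusted p = 0.0086) held without any 1 array. With a floor at the median signal both of these calls were lost (adjusted p = 0.49 and 0.48).

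Tnfrsf9 was higher at 3 h and 6 h with 1 of its 3 probe sets, while Tnfrsf4 did not pass the test at any time over the 12 arrays. That Tnfrsf9 probe set (1460469_at) had signals of 4.62, 4.75 and 17.7 in controls, 12.3, 17.1 and 11.6 at 1 h, 33.7, 25.8 and 37.5 at 3 h, then 114, 96.8 and 86.5 at 6 h. Control replicate 3 lay above the 1 h arrays and the other two controls below them. All 3 h arrays lay above those of control and 1 h, and all 6 h arrays above those of 3 h. The log2 change was 2.13 at 3 h (2.31 minus the median of all probe sets, SE 0.46, adjusted p = 0.016) and 3.76 at 6 h (SE 0.46, adjusted p = 0.00051). The log2 difference of 3 h against 1 h was 1.25 (SE 0.46, adjusted p = 0.10), with an adjusted p of 0.0065 without control replicate 3. The call at 3 h against control was lost without control replicate 1 (adjusted p = 0.058), control replicate 2 (0.060) or ConA 3 h replicate 3 (0.057), and the call at 6 h held without any 1 array. A second probe set (1428034_a_at) was at or under the floor on 10 of 12 arrays and stood at 12.1, 2.32 and 13.6 at 6 h (log2 change 1.38, SE 0.46, adjusted p = 0.067). Without ConA 6 h replicate 2, the array at 2.32, it passed the test (log2 change 2.07, adjusted p = 1e-05). Its arrays before 6 h were all set to the floor and added no spread, which makes that p smaller. The third (1421481_at) varied between 1.41 and 16.7 with no order of the groups (log2 change at 6 h -0.73, 95% confidence interval -2.03 to 0.57, adjusted p = 0.46). Tnfrsf4 had signals of 57.3, 62.5 and 44.0 in controls, 65.5, 69.6 and 63.0 at 1 h, 49.2, 53.7 and 62.2 at 3 h, then 60.7, 115 and 120 at 6 h. It was above the median of its array on all 12 arrays, and at 6 h 1 array lay within the range of the controls while the other two lay above it (log2 change 0.81, SE 0.25, adjusted p = 0.051). Without ConA 6 h replicate 1, the array at 60.7, it passed the test (log2 change 1.12, adjusted p = 0.0025), as it did with an intensity trend (0.046), 1 probe set per gene (0.039) and among brighter probe sets (0.020), and over all other alternatives the adjusted p was 0.051 to 0.19.

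Ctla4 was at or under the floor on the 3 control arrays and higher at 6 h. Its signal was 2.51, 19.3 and 13.1 at 1 h, 6.48, 0.914 and 3.98 at 3 h, then 15.5, 28.6 and 16.5 at 6 h, against at most 2.15 in controls. The 1 h arrays ranged from the floor to within the range of the 6 h arrays, the 3 h arrays all lay below the 6 h arrays, and the groups at 1 h and 3 h overlapped. Ctla4 was at least 6.38-fold higher at 6 h than in control (log2 change 2.67, SE 0.61, adjusted p = 0.013), a call that was lost at the threshold without ConA 6 h replicate 2 (log2 change 2.40, adjusted p = 0.050). At 1 h the log2 change of 1.59 did not pass the test (SE 0.61, adjusted p = 0.34), and it passed without ConA 1 h replicate 1, the array at the floor (log2 change 2.38, adjusted p = 0.024).

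**Figure D2:**
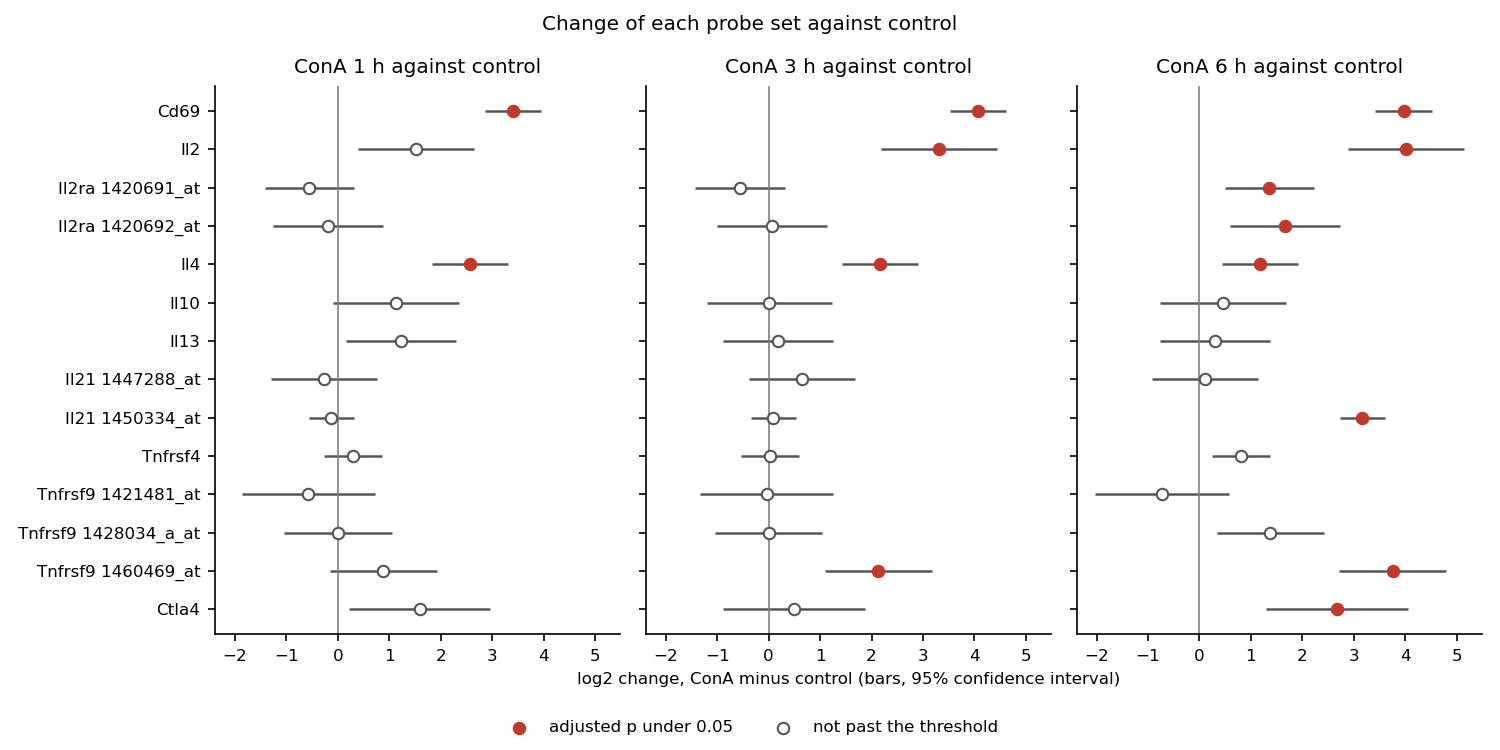
Log2 change of each probe set against control (horizontal axis) for each time after ConA, with the 95% confidence interval as a bar and filled points where the adjusted p was under 0.05. The filled points number 2 at 1 h, 4 at 3 h and 8 at 6 h, all to the right of 0.

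The counts between time points depended on the scaling: as deposited 5 probe sets were higher for 6 h against 3 h and 1 for 3 h against 1 h, while quantile normalization or 75th percentile scaling gave 2 in each. As deposited, at 6 h against 3 h 5 of 14 probe sets were higher (both Il2ra probe sets, Il21, Tnfrsf9 and Ctla4), against 14.3% of all probe sets. None was lower at the adjusted threshold of limma, against 2.42% of all probe sets, and 1 (Il4) was at an unadjusted p under 0.05. For 3 h against 1 h none was lower at the adjusted threshold, against 12.8% of all probe sets, nor at an unadjusted p under 0.05 (0 of 14). Both Il21 probe sets and Tnfrsf9 (1428034_a_at) were at the floor on all arrays at 1 h and could not be lower there. Tnfrsf9 (1460469_at) had a log2 difference of 1.62 (SE 0.46, adjusted p = 0.042) and Ctla4 of 2.18 (SE 0.61, adjusted p = 0.039). As deposited, the median log2 difference of all probe sets was 0.24 for 6 h against 3 h and -0.27 for 3 h against 1 h. After quantile normalization, which brought both to 0, the calls of Tnfrsf9 (log2 difference 1.24, adjusted p = 0.16), Ctla4 (1.89, adjusted p = 0.076) and Il2ra 1420692_at (1.24, adjusted p = 0.15) were lost and those of Il21 and Il2ra 1420691_at held. These 3 calls were also lost when single arrays were left out, with any of 9 arrays for Tnfrsf9 (adjusted p 0.056 to 0.12), 9 for Ctla4 (0.051 to 0.13) and 9 for Il2ra 1420692_at (0.059 to 0.14). At 6 h against 1 h 5 probe sets were higher (Il2, both Il2ra probe sets, Il21 and Tnfrsf9), against 8.02% of all probe sets, with a log2 difference of 2.87 for Tnfrsf9 (SE 0.46, adjusted p = 0.0028). The call of Il2ra 1420692_at there (log2 difference 1.86, SE 0.47, adjusted p = 0.026) was lost without ConA 1 h replicate 1 or 2 or ConA 6 h replicate 1 or 2 (adjusted p 0.061 to 0.082).

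Counting arrays alone, all 3 ConA arrays lay above all 3 controls for 5 of 14 probe sets at 1 h (Cd69, Il2, Il4, Il10 and Tnfrsf4), against 10.2% of all probe sets. It held for 4 at 3 h, against 7.28%, and for 8 at 6 h, against 19.8%. No probe set of these genes had all 3 ConA arrays below the controls. The share over all probe sets was 3.96% at 1 h, 23.2% at 3 h and 13.9% at 6 h. Arrays were ordered after the floor was set, so that a probe set with any control array at the floor could not count as below. This applied to Cd69, Il2, Il4, Il13, Ctla4, both Il21 probe sets and the Tnfrsf9 probe set with all controls at the floor. For these the absence of a fall was fixed in advance and says nothing.

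Il10 and Il13 had no probe set above the median of any array. A probe set was taken to be near the floor where its signal was under the median signal of the array on all 12 arrays. This held for 4 of 14 probe sets (Il10, Il13, Il21 1447288_at and Tnfrsf9 1428034_a_at), against 35.8% of all probe sets, and for none with the 25th percentile in place of the median. Il10 was at or under the floor on 1 of 12 arrays. The highest ranks of these 2 genes on any array were the percentile 48.8 for Il10 and 40.3 for Il13. No probe set of the 14 was at or under the floor on all 12 arrays, against 2.08% of all probe sets. The highest percentile of the other probe sets on any array was 51.4 for Tnfrsf9 (1421481_at), 53.8 and 58.6 for Il2ra, 56.4 for Ctla4, 61.0 for Il4, 62.0 for Il21 (1450334_at), 68.8 for Il2, 75.1 for Cd69, 78.4 for Tnfrsf9 (1460469_at) and 79.4 for Tnfrsf4. Probe sets differ in how they bind, so that these ranks do not order the genes by RNA level.

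**Figure D3:**
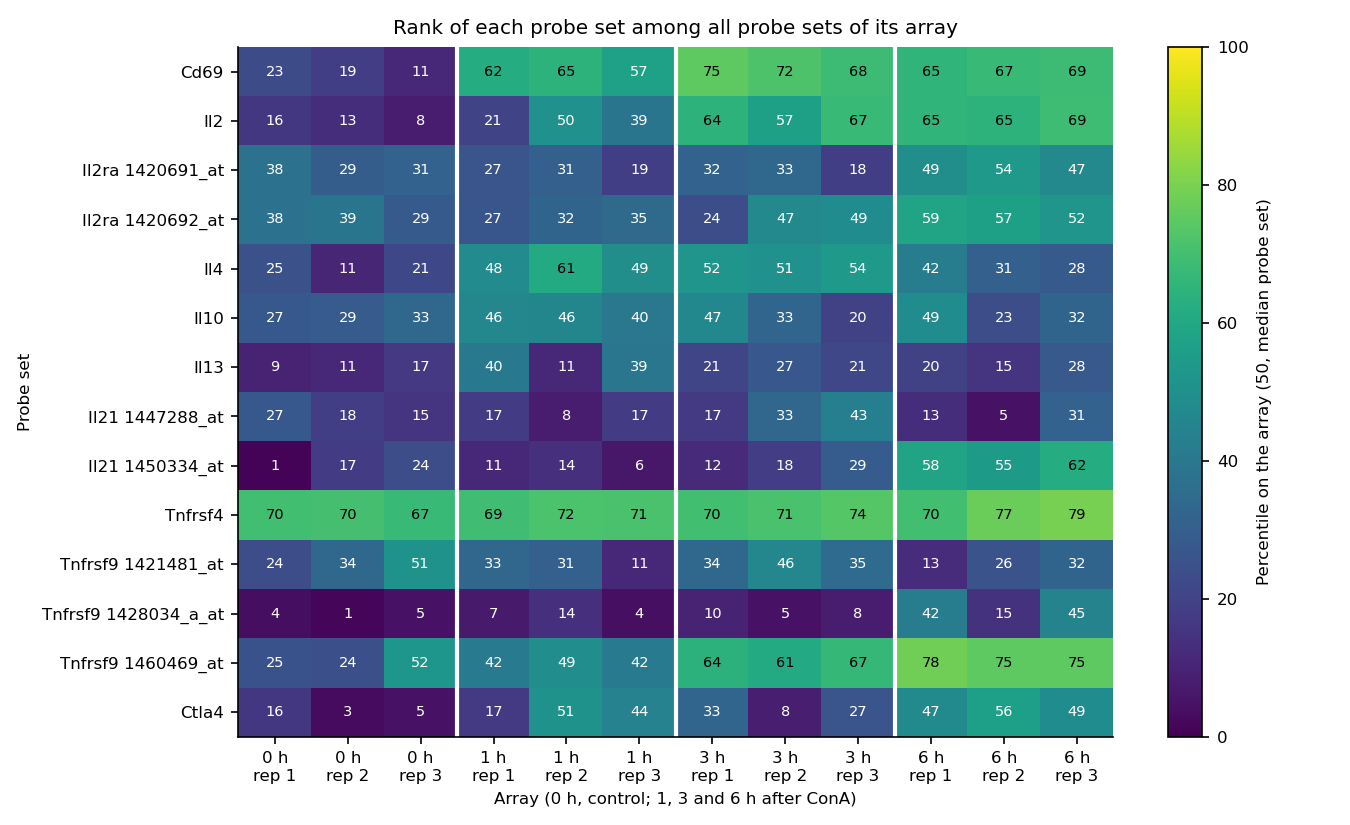
Percentile of each of the 14 probe sets among all 45037 probe sets of its array (colour and number; 50 is the median probe set), with the 12 arrays in columns by time and replicate. Tnfrsf4 lies above 67 on every array, and Il13 does not pass 40.3 on any.

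Genes that act with these were counted in 7 lists, of which 92 of 102 genes had a probe set with a single symbol, and the others, such as Il2rg and Lck, were not analysed here. Of 16 other effector cytokines and ligands of T cells, 2 rose at 1 h (1.45% of all genes did), 4 at 3 h (4.76% of all genes) and 4 at 6 h (14.4% of all genes). None of them fell, against 0.148% of all genes at 1 h, 12.9% at 3 h and 11.8% at 6 h. Their median log2 change at 6 h was 0.41, against 0.02 over all genes. Ifng, the main macrophage-activating cytokine, had signals of 27.7, 63.0 and 30.6 at 1 h and 139, 74.2 and 76.4 at 6 h, against at most 4.83 in controls (log2 change at 6 h 4.70, SE 0.38, adjusted p = 5.8e-05). Tnf, an inflammatory cytokine that macrophages also make, had signals of 42.6, 6.73 and 58.6 at 6 h and was at least 8.41-fold higher than its 3 control arrays, which were at the floor (log2 change 3.07, adjusted p = 0.010). Without ConA 6 h replicate 2, the array at 6.73, the log2 change of Tnf was 4.04 (adjusted p = 5.4e-05), and the call was lost with only the groups compared (0.086) or a floor at the median signal (0.14). Ltb, a lymphotoxin, and Xcl1, a chemokine of activated lymphocytes, had log2 changes of 3.13 and 2.82 at 6 h (adjusted p = 0.00076 and 0.0088). The remaining 12 cytokines and ligands did not pass the test, and 6 of the 16 were near the floor throughout.

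Among 7 receptors of the cytokines, Il13ra1 rose at 3 h (4.76% of all genes did) and Il13ra1 and Il4ra at 6 h (14.4%). None fell, against 0.148% of all genes at 1 h, 12.9% at 3 h and 11.8% at 6 h. Il13ra1, which pairs with the IL-4 receptor alpha chain to bind IL-13 and IL-4, had signals of 457, 493 and 421 at 6 h, against 192, 143 and 191 in controls (log2 change 1.39, SE 0.18, adjusted p = 0.00068). Il4ra had 86.5, 75.6 and 93.3 at 6 h, against 44.4, 47.2 and 39.3 in controls (log2 change 0.96, SE 0.25, adjusted p = 0.023), a call lost without control replicate 1 or 3 or ConA 6 h replicate 1 or 3 (adjusted p 0.058 to 0.075). Il2rb, the signalling chain that pairs with Il2ra, had a log2 change of 1.02 at 6 h (SE 0.89, adjusted p = 0.51).

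Of 8 ligands and partners of the surface receptors, Tnfsf9 rose at 1 h (1.45% of all genes did) and Traf1 at 3 h (4.76%). Cd28, Cd86, Traf1 and Traf2 rose at 6 h (14.4%). None of the 8 fell, against 0.148% of all genes at 1 h, 12.9% at 3 h and 11.8% at 6 h. Tnfsf9, the ligand of 4-1BB, had signals of 14.1, 19.4 and 15.9 at 1 h, at least 5.35-fold above the floor at which its 3 control arrays stood (log2 change 2.42, SE 0.32, adjusted p = 0.0068), and 4.21, 6.55 and 1.04 at 3 h (log2 change against control 0.52, adjusted p = 0.36). Cd28, the costimulatory receptor that shares its ligands with CTLA-4, had signals of 32.7, 27.2 and 40.5 at 6 h, against 7.26, 6.96 and 3.80 in controls (log2 change 2.52, SE 0.41, adjusted p = 0.0025). Traf1 and Traf2, adaptors of the TNF receptor family, had log2 changes of 1.69 and 1.06 at 6 h (adjusted p = 0.0046 and 0.0034). The call of Traf1 at 3 h was lost without any 1 of the control arrays or ConA 3 h replicate 2 or 3 (adjusted p 0.050 to 0.11) and under the replicate block (0.063), and that of Cd86, a ligand of CD28 and CTLA-4, at 6 h without control replicate 1 or ConA 6 h replicate 1 or 2 (0.062 to 0.068). Tnfsf4, the ligand of OX40, had a log2 change of -0.65 at 6 h (SE 0.63, adjusted p = 0.57).

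Of 12 other activation and checkpoint receptors 3 rose at 1 h (1.45% of all genes did), 4 at 3 h (4.76%) and 6 at 6 h (14.4%). None fell, against 0.148% of all genes at 1 h, 12.9% at 3 h and 11.8% at 6 h. Of the 12, 5 were near the floor throughout and had little room to fall. Cd274, the ligand PD-L1, which many cell types make, had a log2 change of 6.18 at 3 h (SE 0.34, adjusted p = 1.1e-05), and Cd83, an activation antigen of lymphocytes and dendritic cells, one of 5.04 at 1 h (SE 0.39, adjusted p = 0.00026). Icos and Pdcd1, receptors of activated T cells, did not pass the test at any time (log2 changes at 6 h 0.53 and 0.41).

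Of 22 transcription factors 6 rose at 1 h, 12 rose and 2 fell at 3 h, and 10 rose and 1 fell at 6 h. Over all genes 1.45% rose at 1 h, 4.76% rose and 12.9% fell at 3 h, and 14.4% rose and 11.8% fell at 6 h. Egr3 and Nr4a3, which are induced by T cell receptor signals, had log2 changes of 4.35 (SE 0.37, adjusted p = 0.00051) and 4.02 (SE 0.31, adjusted p = 0.00024) at 1 h. At 6 h Irf8, a factor of macrophages, dendritic cells and B cells, had the largest log2 change of the list (4.24, adjusted p = 1.5e-06), followed by Egr2 (3.52, adjusted p = 0.00078), Tbx21, the T-bet factor of type 1 helper cells (3.36, SE 0.38, adjusted p = 0.00035), and Irf4 (3.28, adjusted p = 0.0055). Gata3 and Foxp3, factors of type 2 helper and regulatory T cells, had log2 changes of 0.09 and 0.38 at 6 h (adjusted p = 0.85 and 0.75). The factors that fell were Maf (log2 change -1.07 at 6 h, SE 0.28, adjusted p = 0.025) and Nfatc3 (-0.39 at 3 h, SE 0.11, adjusted p = 0.049), both named after their values were seen. With 1 array left out 0 to 2 factors were lower at 3 h and 0 to 1 at 6 h.

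Of 13 genes of proximal T cell receptor signalling 2 rose at 1 h, 4 rose and 2 fell at 3 h, and 7 rose and 2 fell at 6 h. The shares over all genes were 1.45% risen at 1 h, 4.76% risen and 12.9% fallen at 3 h, and 14.4% risen and 11.8% fallen at 6 h. Rcan1, a calcineurin inhibitor that NFAT induces and that many cell types make, had signals of 2261, 2201 and 1792 at 1 h, against 228, 238 and 323 in controls (log2 change 3.00, SE 0.17, adjusted p = 5.7e-05). At 6 h the largest log2 changes of the list were those of Lat, a membrane adaptor of the receptor (3.28, adjusted p = 0.036), and Prkcq, a protein kinase C of T cells (2.42, adjusted p = 0.012), whose 3 control arrays were at the floor (at least 5.36-fold). The call of Lat was lost without control replicate 1 or 2, ConA 3 h replicate 1 or any 1 of the ConA 6 h arrays (adjusted p 0.051 to 0.12), and under the replicate block (0.058). The genes that fell were Ppp3ca, a catalytic subunit of calcineurin, and Plcg1, a phospholipase (log2 changes at 6 h -0.87 and -1.33, adjusted p = 0.0015 and 0.00048), which were also named after their values were seen.

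Of 14 feedback and response genes of the cytokines, those that rose numbered 5 at 1 h (1.45% of all genes rose), 10 at 3 h (4.76%) and 11 at 6 h (14.4%). Arg1, an arginase of hepatocytes and macrophages named after its value was seen, fell at 6 h (log2 change -0.77, SE 0.11, adjusted p = 0.0012). Socs3 and Socs1, inhibitors of cytokine signalling, had log2 changes of 5.11 (SE 0.30, adjusted p = 1.2e-05) and 5.96 (SE 0.45, adjusted p = 4e-05) at 6 h, and Il1rn, the IL-1 receptor antagonist, had one of 4.49 (adjusted p = 0.00055). Chil3, which IL-4 and IL-13 induce in macrophages, had signals of 25.9, 50.1 and 70.1 at 6 h and was at least 14.8-fold above the floor at which its 3 control arrays stood (log2 change 3.88, SE 0.45, adjusted p = 0.00039).

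**Figure D4:**
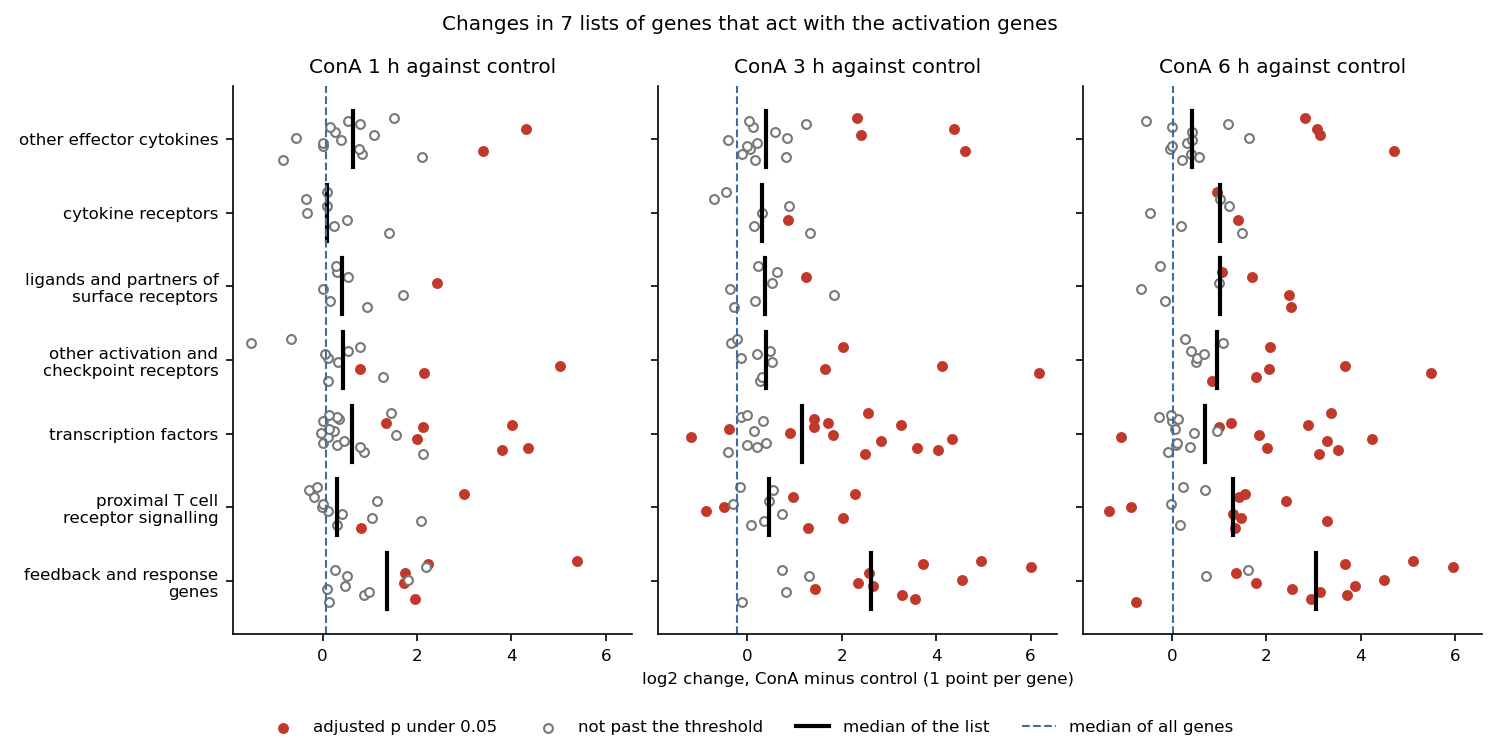
Log2 change against control (horizontal axis), in 1 panel per time after ConA, of the 92 measured genes of 7 lists, 1 point per gene, filled where the adjusted p was under 0.05, with the median of the list as a black bar and that of all genes as a dashed line. The feedback and response genes have the highest median of the 7 lists at each time, 3.05 at 6 h.

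Markers of several blood cell types moved over the same hours. Of 10 T cell markers none passed the test at 1 h or 3 h. At 6 h 3 were higher, Cd3g, Cd2 and Cd5 (log2 changes 1.38, 2.10 and 1.97), against 14.4% of all genes. Their summed signal was 74.9 to 94.0 in controls, 103 to 151 at 1 h, 106 to 135 at 3 h and 172 to 214 at 6 h, and Cd4 was at the floor on all arrays at 1 h and 3 h. The summed T cell marker signal was highest at 6 h, and every array at 1 h and 3 h also lay above every control array. With 1.45% of all genes higher at 1 h and 4.76% at 3 h, that none of 10 markers passed then says little.

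Of 3 NKT cell markers Zbtb16, the PLZF factor, was higher at 6 h (log2 change 2.29, SE 0.63, adjusted p = 0.031), against 14.4% of all genes. Zbtb16 had signals of 84.5, 153 and 86.4 in controls, 297, 465 and 769 at 1 h, 148, 40.4 and 219 at 3 h, then 313, 644 and 645 at 6 h. Its log2 change at 1 h was nearly as large but did not pass the test (2.19, SE 0.63, adjusted p = 0.17), and all arrays at 1 h and 6 h lay above the controls. Cxcr6, a chemokine receptor of NKT cells, was at 6.03 to 18.4 over the 12 arrays and did not pass the test. Which cells of the whole liver made the Zbtb16 RNA was not tested, so that its rise cannot be read as more NKT cells. The summed signal of the 3 markers was 2291 to 3772 in controls, 3938 to 4813 at 1 h, 1697 to 3352 at 3 h and 2523 to 4012 at 6 h, nearly all of it from Cd1d1 (2189 to 3681 in controls, for example), the molecule that presents antigen to NKT cells and is no marker of these cells themselves. Of 7 NK cell markers Gzma and Gzmb, granzymes that activated T cells also make, were higher at 3 h (4.76% of all genes were) and 6 h (14.4%). The summed signal of the 7 was 381 to 510 at 6 h, against 75.3 to 107 in controls. The granzymes carried that sum at 6 h, with 201 to 311 for Gzmb and 63.7 to 90.2 for Gzma, and the other 5 markers, such as Prf1 (25.7 to 29.5 at 6 h, against 20.1 to 28.1 in controls), did not pass the test at 3 h or 6 h. None of 6 markers of mast cells and basophils, which also make IL-4 and IL-13, passed the test, with Fcer1a and Mcpt4 at the floor on all control arrays, Mcpt8 at 1 h, Fcer1a and Mcpt4 at 3 h and Mcpt4 at 6 h, and 5 of the 6 near the floor throughout. Their summed signal was 22.3 to 46.7 in controls, 39.8 to 66.4 at 1 h, 37.6 to 49.5 at 3 h and 74.6 to 88.8 at 6 h. Of 6 neutrophil markers 3 were higher at 1 h, 5 at 3 h and all 6 at 6 h, against 1.45%, 4.76% and 14.4% of all genes. Their summed signal was 833 to 1151 at 1 h and 1626 to 2514 at 6 h, against 90.1 to 127 in controls. The summed signals of B cell and dendritic cell markers at 6 h also lay above the controls. Those of Kupffer cells (609 to 892, against 993 to 1352 in controls) and monocytes (427 to 535, against 755 to 1022) lay below. Single markers did not all go that way at 6 h. Of 4 monocyte markers 2 were higher and 2 lower (median log2 change 0.26). Of 5 Kupffer cell markers 1 was higher and 2 lower (median -0.06). Over all genes 14.4% were higher and 11.8% lower. The sums of type 2 innate lymphoid cell and hepatocyte markers overlapped the controls. The part of these cell types in the changes of the activation genes was not tested, and the marker genes named were chosen after their values were seen.

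**Figure D5:**
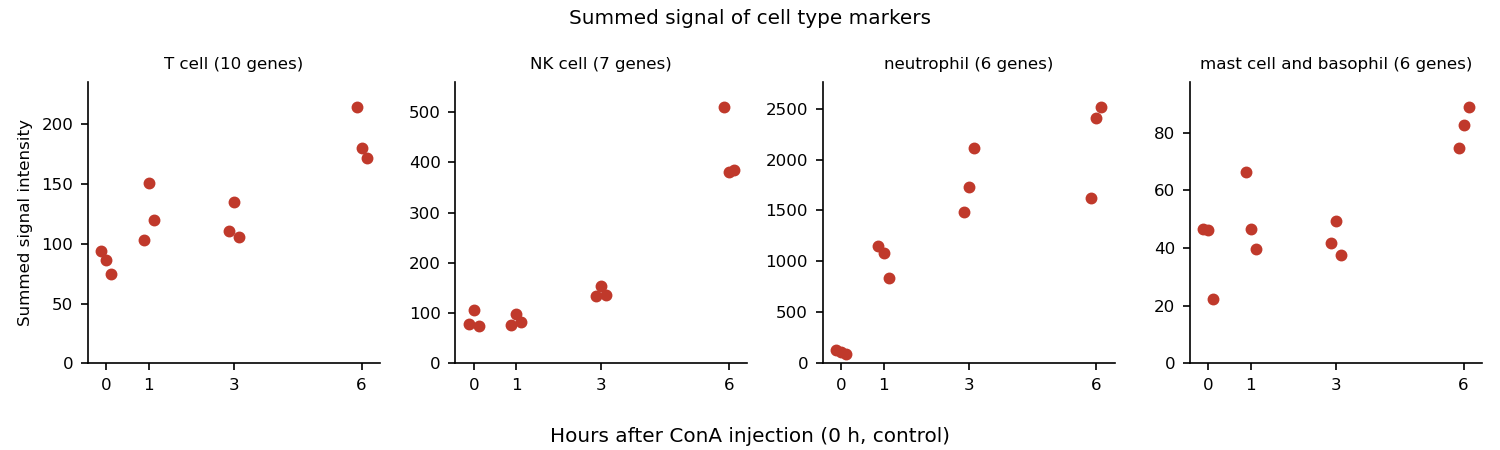
Summed signal of the measured markers of T cells, NK cells, neutrophils, and mast cells and basophils (vertical axes from 0, a scale of its own in each panel) on each array against hours after ConA injection. All 3 arrays at 6 h lie above the controls in each panel, with 172 to 214 at 6 h against 74.9 to 94.0 in controls for T cells.

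The genes whose signal followed the activation genes most closely over the 12 arrays were not all genes of lymphocytes. For each of the 8 probe sets past the F test, Pearson's r of log2 signal was computed with 11410 genes whose highest group mean was above the median signal, as a description over arrays that share their time points. Cd69 was closest to Gja1, a gap junction protein (r = 0.98), and to the neutrophil calgranulins S100a8 and S100a9 (r = 0.98 each). Il4 was closest to Il1b, a cytokine of macrophages and neutrophils (r = 0.96), the chemokine Ccl3 (0.95) and Egr3 (0.94). Il2 was closest to Hdc, which makes histamine (r = 0.98), Ptgs2, which makes prostaglandins (0.96), and Batf3 (0.96). Il21 was closest to Reg3g, an antibacterial lectin (r = 0.99), Sarm1 (0.99) and the zinc transporter Slc39a10 (0.99). The other closest genes were Egfr, Lif and Mlkl for Tnfrsf9 (r = 0.96 each), Ifi27l2b, Lpar1 and Bhlha15 for Ctla4 (r = 0.88 to 0.92), and Ubtd2, Nucb2 and Edem3 (r = 0.94 each) and Slpi, H2-M3 and H2bc18 (r = 0.90 to 0.92) for the Il2ra probe sets.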

How the data were processed

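Liver RNA of 12 arrays was measured in 4 groups of 3. The authors deposited linear signal intensity values, made with MAS5 5.0 per the submitters' processing notes, whereas the study's methods name RMA. The distributions differed between arrays, and the values were used without new scaling. The table held 45101 probe sets, of which 64 manufacturer's controls were left out. Of the rest, 34945 had 1 symbol, 932 several (1 of them with a member among its symbols, not used) and 9160 none. Symbols were checked through the Entrez ID and updated where needed for 34741 probe sets, and 204 without a match kept theirs. Depth does not apply to arrays, whose number limits the precision.

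Signals were set to a floor at the 20th percentile and log2 was taken. The 4 groups were fitted with limma 3.58.1 in R 4.3.3 (group means, 12 arrays, no intensity trend), in 6 comparisons, with Benjamini-Hochberg adjusted p under 0.05 over all probe sets as the threshold. The fit was tested on simulated data. The F test stands for the random variance model of the study. Arrays of the same replicate number were not taken as pairs.

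The genes, lists and tests were chosen with earlier results of these data known. The text names every probe set of the 10 genes. The rule for the lists was up to 4 genes per time, with the largest changes among those that passed the threshold and whose 3 arrays all lay beyond the controls. Not every gene or time that this rule gives is printed, and which ones are was chosen after their values were seen. For each probe set past the F test it names the 3 genes with the highest correlation. Genes of the lists given with a test they did not pass were chosen after their values were seen. The probe set with the highest mean stood for a gene. The 11 marker lists held 63 genes, 54 of them measured. Those whose calls are not described above were for B cells (none of 3 called), type 2 innate lymphoid cells (none of 2), Kupffer cells (3 h: 2 of 5 lower, 6 h: 2 lower and 1 higher), monocytes (3 h: 1 of 4 lower, 6 h: 2 lower and 2 higher) and dendritic cells (1 of 4 higher at 6 h). The alternatives were quantile normalization, scaling to the 75th percentile, a pseudocount of 1, a floor at the median signal, only probe sets brighter than the median, an intensity trend, a replicate block, only the groups compared, leaving out each array, 1 probe set per gene, a change of at least 2-fold, and for the F test a plain analysis of variance. Promoter windows and their build came from RefSeq.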

Additional observations from a re-analysis of the deposited data

How the results depend on the processing

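No called probe set of the activation genes and no list gene named by the rule changed direction under any alternative run, whereas the balance of calls over all probe sets did, as given below. Of the 14 probe sets, those higher than control numbered 2 (1 h), 4 (3 h) and 8 (6 h). With a floor at the median signal the count was 0 for 1 h and 5 for 6 h, among probe sets brighter than the median 1, 2 and 3, and with only the groups compared 1 at 1 h. With 1 array left out the range was 2 to 4 for 1 h (4 without ConA 1 h replicate 1), and for 6 h it was 5 to 8 (5 without control replicate 2 or 3 or ConA 6 h replicate 2). For 3 h against 1 h (1 higher, none lower) 2 were higher after quantile normalization, 75th percentile scaling, a floor at the median and among brighter probe sets, 0 with a pseudocount, and 0 to 1 higher and 0 to 1 lower with 1 array left out. For 6 h against 3 h (5 higher, none lower) quantile normalization and 75th percentile scaling each gave 2 higher and 1 lower, a floor at the median 3, brighter probe sets 2, and 1 array left out 2 to 4 higher and 0 to 1 lower. For 6 h against 1 h (5 higher, 1 lower) brighter probe sets gave 1 higher and 0 lower, a floor at the median and only the groups compared 0 lower, and 1 array left out 0 to 2 lower. Brighter probe sets gave 3 past the F test, the only ones of the 14 tested there, against 8 of 14. No probe set was near the floor by the array's 25th percentile or at the floor on all arrays (0 each, against 4). The brighter probe sets leave out dim ones by construction, and other causes were not tested.

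Residuals of arrays with the same replicate number correlated at -0.011 to 0.038 (18 pairs) and others at -0.036 to 0.029 (36 pairs), so that the numbers were not taken to pair arrays. A replicate block gave 0 higher for 3 h against 1 h, 2 for 6 h against 3 h and 1 transcription factor lower at 3 h, and moved no other count of the activation genes by over 1.5 times. It also ended the calls of Traf1 (adjusted p = 0.063) and Xcl1 (0.051) at 3 h and of Lat (0.058) at 6 h.

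Counts of the 7 lists at 1 h moved as follows. With a floor at the median 0 effector cytokines and 0 ligands and partners were higher, and brighter probe sets gave 0 ligands and partners and 10 transcription factors. With only the groups compared 1 effector cytokine, 0 checkpoint receptors, 3 transcription factors, 1 signalling gene and 3 feedback genes were higher, and a pseudocount or a 2-fold change gave 1 signalling gene. With 1 array left out 1 to 3 effector cytokines, 1 to 2 ligands and partners and 1 to 2 signalling genes were higher. At 3 h the ligands and partners (1 higher) were 3 after quantile normalization, 2 with 75th percentile scaling, brighter probe sets, an intensity trend or 1 probe set per gene, 0 with a floor at the median or only the groups compared, and 0 to 1 with 1 array left out. Only the groups compared gave 2 effector cytokines, and a 2-fold change 0 cytokine receptors. The transcription factors and the signalling genes that were lower (2 each) were 1 each after quantile normalization, 75th percentile scaling, a pseudocount or only the groups compared, 1 and 0 with a 2-fold change, and 0 to 2 and 1 to 2 with 1 array left out. At 6 h a 2-fold change gave 1 cytokine receptor higher, 1 signalling gene lower and 0 feedback genes lower, only the groups compared 2 effector cytokines higher and 0 transcription factors lower, and brighter probe sets 2 ligands and partners. With 1 array left out 1 to 2 cytokine receptors were higher and 0 to 1 transcription factors lower. Of all probe sets called at 3 h against control, 27.7% were higher as deposited and 50.8% after quantile normalization; the same pair of shares was 83.4% and 70.7% for 1 h, 59% and 47.7% for 6 h, 14% and 53.4% for 3 h against 1 h, and 85.5% and 49.2% for 6 h against 3 h.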
